A study of Rattus norvegicus with 10 samples.

Results

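Gene expression in cultured rat Sertoli cells after 4 h of follicle-stimulating hormone (FSH) was compared with that in untreated cells at 0 h. The comparison used 4 of the 10 arrays in the series: 2 labelled as FSH-treated for 4 h and 2 labelled as untreated controls at 0 h. All 8740 probe sets other than the array's control features were considered, and replicate 1 was set against replicate 1 and replicate 2 against replicate 2. The cells of both groups came from 20-day-old rats and were held in vitro, and total RNA was measured on an Affymetrix rat array. The other 6 arrays, taken after 2, 8 and 24 h of FSH, entered the estimate of the spread and the comparisons between times. The strain, the FSH dose, the culture conditions and the number of animals pooled are not given in the sources used here. There was no untreated culture later than 0 h, so FSH and 4 h in culture cannot be told apart. Whether the replicates were separate cultures is not in the labels, so the p-values reflect the spread of these arrays only, and that spread may be technical.

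Sertoli cells are the somatic cells of the seminiferous tubule that support germ cells, form the blood-testis barrier and secrete inhibin. FSH binds its receptor Fshr on these cells, which acts through the G protein Gs and adenylyl cyclase to raise cAMP. Cyclic AMP activates protein kinase A, which phosphorylates the transcription factor CREB. CREB binds the cAMP response element in promoters, and its early targets include genes for other transcription factors and for enzymes that end the signal.

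Intensities below are array values scaled to a common 75th percentile, and pairs of values are given as replicate 1 and then replicate 2. Log2 differences were taken after values under a floor of 13.4 had been set to that floor, and 4439 probe sets that were bright enough on average were tested. A difference was called where limma's adjusted p was under 0.05. Errors of log2 differences are limma standard errors of the first fit, without pairing, with n = 2 arrays per group. This holds also where a paired p stands beside them. The replicate numbers paired the arrays, so a second limma fit that took the replicate number as a block, called the paired fit here, stands beside the first.

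Among the probe sets bright enough to be tested, most of the response at 4 h was upward. In the unpaired fit 38 of 4439 probe sets were higher after FSH (0.856%), covering 27 genes, and 0 were lower (0.0%). The brightness filter took the mean over all arrays of the series, most of them FSH-treated, which can favour probe sets that rise. Without that filter the unpaired fit called 31 of 8740 probe sets higher and 11 lower. A change of at least 2-fold in both pairs was then found for 174 upward and 62 downward. With the filter, at an unadjusted p under 0.05, limma had 256 probe sets higher and 88 lower. The smallest adjusted p among the lower ones was 0.0626. In the paired fit 117 were higher (2.64%) and 14 lower (0.315%), covering 78 and 9 genes. All 38 unpaired calls were also called in the paired fit and were at least 2-fold higher in both pairs. Their log2 differences ran from 1.62 to 5.44. Both FSH arrays lay above both untreated arrays for all 38, an order that 15.0% of all tested probe sets had, while 13.0% had the reverse order. A difference of at least 2-fold in both pairs was found for 159 probe sets upward (3.58%) and 42 downward (0.946%), and for 109 genes upward (3.99%) and 32 downward (1.17%).

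**Figure D1:**
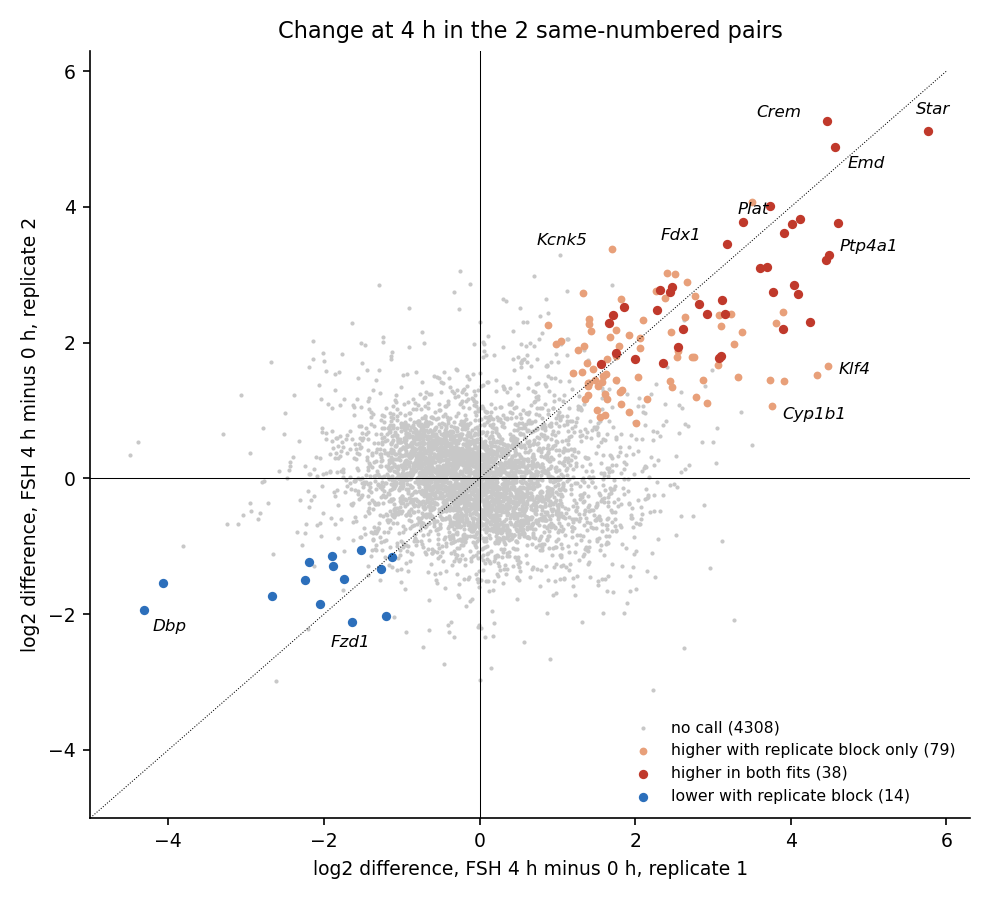
Log2 difference between FSH at 4 h and 0 h in the replicate 1 pair (horizontal axis) and the replicate 2 pair (vertical axis) for the 4439 tested probe sets. The 38 probe sets higher in both fits (dark red), the 79 higher in the paired fit alone (orange) and the 14 lower in the paired fit (blue) stand apart from a grey mass in which the pairs have little in common.

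The pairs differed in size. Among the 38 calls the median log2 difference was 3.17 in pair 1 and 2.73 in pair 2, and 24 of the 38 were larger in pair 1. Over all tested probe sets the SD of the log2 differences was 0.988 in pair 1 and 0.781 in pair 2, and 107 probe sets moved at least 2-fold in opposite directions in the 2 pairs. Of the 38 calls, 5 had both untreated arrays at the floor and 7 had 1 of them there, so their folds depend on the floor. Leaving out an array left 13 higher calls where 0 h replicate 1 was dropped, 19 where 0 h replicate 2 was, 8 and 11 without the first and second 4 h array, 16 without either 8 h array and 25 and 24 without the first and second 24 h array. Without 0 h replicate 2, 1 probe set was called lower. Star, Crem, Emd, Plat, Dgcr6, Fdx1 and Bmyc each had a probe set called in all 10 of these fits, 8 probe sets in all. Amd1, Bex3, Ocln, Phaf1, Pmp22 and a further Bmyc probe set were called in none of them.

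The arrays held transcripts of Sertoli cells, at levels that differed widely between genes. Clu, which encodes clusterin, had an intensity of 13782 and 7695 in the untreated arrays and 11346 and 9795 in the FSH arrays, and Shbg, the androgen-binding protein, lay between 629 and 911. Of 8 Sertoli markers with a probe set, Inha, Wt1 and Amh were above 100 on every array by their brightest probe set, Fshr lay between 68.8 and 195, Gata1 between 13.7 and 51.6, too dim to test, and Inhbb was at the floor on 3 of the 4 arrays. The 21 germ cell markers on the array summed to 1532 and 3020 at 0 h and 972 and 3170 after FSH, with 5 to 10 of them at the floor, and 0 of the 11 tested were called in either fit. Peritubular myoid markers summed to 884 to 1308, Leydig cell markers to 153 to 237, endothelial markers to 115 to 183 and macrophage markers to 154 to 219. Beta-actin had a 3'/5' ratio of 1.17 and 1.76 at 0 h and 1.12 and 1.74 after FSH, so it moved with the replicate number. The hexokinase ratio differed more, at 1.60 and 5.27 at 0 h and 1.72 and 7.30 after FSH. Its 5' values on replicate 2 were dim, at 11.5 and 9.2 as deposited. The Gapdh ratio was 0.737 and 0.914 at 0 h and 0.792 and 1.01 after FSH. The CreX spike, a control of the array, read 16221 as deposited on 0 h replicate 1, against 7349 on 0 h replicate 2 and 8260 and 9818 on the FSH arrays. Ldhc, a lactate dehydrogenase of germ cells, read 569.5 and 1007 at 0 h and 108.5 and 1251 after FSH. The part of these differences in the results was not tested.

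Among the function lists, that of transcription factors had the most calls. Of 21 tested genes in a list of immediate early and CREB-target factors, 5 rose in the unpaired fit (0.988% of all 2733 genes tested were called this way) and 8 in the paired fit (2.85% of all genes), and 0 fell. The list's median log2 difference was 0.78, against -0.037 over all genes tested, and 13 of the 21 were above 0 in both pairs (22.3% of all genes were). The 5 were Crem, Bmyc, Nr4a1, Nr4a2 and Nr4a3. The shares over all genes, 0.988% unpaired and 2.85% paired, are the background for rises in every list below. The lists were chosen with earlier results of these data known, so a share above the background is a description and no test of enrichment. For falls in the paired fit the background is 0.329%.

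Crem encodes the cAMP response element modulator and gives rise to the inducible repressor ICER. Its probe set S66024_g_at had 122 and 90.9 in the untreated arrays and 1268 and 1244 after FSH, a log2 difference of 3.58 ± 0.38 (SE, n = 2 arrays per group, adjusted p = 0.00255). A dimmer Crem probe set, S66024_at, went from 24.8 and 10.2 to 546 and 518, with 1 untreated array at the floor, and U04835_at went from 32.0 and 32.7 to 416 and 282. All 3 were called, and on each the FSH arrays lay far above the untreated arrays in both replicates.

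The Nr4a genes encode orphan nuclear receptors that are induced quickly by cAMP. Nr4a1 had 70.1 and 101 at 0 h and 1328 and 496 after FSH on the called probe set, so the FSH arrays differed from each other by more than those of Crem did (log2 difference 3.27 ± 0.60, adjusted p = 0.0498, paired 0.00525). Its other probe set, with 54.9 and 61.7 against 401 and 169, was called in the paired fit alone (adjusted p = 0.307 unpaired, 0.0191 paired). Nr4a2 was at the floor on both untreated arrays by both of its probe sets and reached 222 and 96.4 on the brighter, at least 10.9-fold higher (adjusted p = 0.0313). Nr4a3 was likewise at the floor at 0 h and had 326 and 182 after FSH, at least 18.1-fold higher (adjusted p = 0.00564). A second Nr4a3 probe set read 21.1 and 46.4 against 19.8 and 31.1, with overlapping groups and no call, so the probe sets of this gene disagree.

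Bmyc, a relative of Myc that lacks its DNA-binding end, rose on all 3 of its called probe sets. The first read 7.57 and 21.7 at 0 h and 163 and 186 after FSH, with 1 untreated array at the floor (log2 difference 3.35 ± 0.34, adjusted p = 0.00255). The FSH arrays were nearly equal on the other probe sets too, at 102 and 94.5 on the second and 76.0 and 77.3 on the last, but both sat at the edge of the threshold (adjusted p = 0.0498 for each).

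In the paired fit 3 further members of the list rose: Fos, Junb and Klf4. Fos, the AP-1 subunit, had 79.5 and 53.8 at 0 h and 244 and 156 after FSH (log2 difference 1.58 ± 0.53, adjusted p = 0.355 unpaired, 0.0243 paired). Another Fos probe set was called in the paired fit, and the brightest, at 199.5 and 158 against 376 and 238, was called in neither (paired adjusted p = 0.249). Junb, another AP-1 subunit, had 185 and 84.2 against 491 and 430.3 (1.88 ± 0.39, 0.0732 unpaired, 0.0139 paired), and its second probe set, at 175 and 202 against 412 and 345, was called in neither fit (paired adjusted p = 0.0827). For Klf4, a zinc-finger factor, pair 1 differed far more than pair 2: the untreated arrays had 18.8 and 29.4 and the FSH arrays 421 and 92.5 (adjusted p = 0.0819 unpaired, 0.0120 paired). Jun, the partner of Fos, differed by -0.51 to -0.057 log2 units over 4 probe sets and was called on none. The 2 tested Cebpb probe sets read 72.0 and 35.0 against 218 and 97.1, and 8.98 and 8.07 against 71.3 and 41.9, at least 2-fold higher in both pairs but not called in either fit (adjusted p = 0.329 and 0.252). Cebpd, a relative of Cebpb, had 114 and 94.7 against 45.2 and 46.1, a log2 difference of -1.19 that was also not called (adjusted p = 0.187, paired 0.0914).

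Promoter sequences were examined because protein kinase A acts through CREB. The letters searched were the full cAMP response element TGACGTCA, which is its own reverse complement, and its shorter core TGACG or CGTCA on either strand, which the full element contains. The window was the 250 bases before the start that RefSeq gives for each gene in the GRCr8 assembly, with 1 start per gene, and 20 of the 27 genes called in the unpaired fit had one. The core was found in 12 of these 20 (60%), in 29 of 66 genes higher in the paired fit (43.9%), in 0 of 7 genes lower in the paired fit and in 672 of 2277 genes tested (29.5%). Over all 27457 promoters of the table the share was 19.0%. The full element was in 1 of the 20 (5%), in 4 of the 66 (6.06%), in 0 of the 7, in 63 of the 2277 (2.77%) and in 466 of the 27457 (1.70%). The windows below are the start-proximal sequences of 5 of the 12 genes, with every core in capitals. Crem and Nr4a1 are among the transcription factors above. Emd and Dgcr6 have 4 and 3 copies, and LOC102547700 has the full element, 15 bases before its start. Bex3 also has 4 copies and is not shown. Only 1 start per gene was searched, so a separate start for the ICER transcript of Crem would be missed. Star, Plat, Nr4a3, Bmyc, Dgat1, Lox and Slc25a30 had no window and were not searched. These letters are a description and do not show that a factor binds.
Crem, chr17:58933816-58934065, plus strand: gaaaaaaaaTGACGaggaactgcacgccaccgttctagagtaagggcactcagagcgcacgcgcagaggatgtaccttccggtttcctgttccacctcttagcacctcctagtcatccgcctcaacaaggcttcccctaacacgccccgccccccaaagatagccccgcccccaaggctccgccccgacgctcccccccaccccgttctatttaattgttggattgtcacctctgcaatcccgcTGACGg
Nr4a1, chr7:134259888-134260137, plus strand: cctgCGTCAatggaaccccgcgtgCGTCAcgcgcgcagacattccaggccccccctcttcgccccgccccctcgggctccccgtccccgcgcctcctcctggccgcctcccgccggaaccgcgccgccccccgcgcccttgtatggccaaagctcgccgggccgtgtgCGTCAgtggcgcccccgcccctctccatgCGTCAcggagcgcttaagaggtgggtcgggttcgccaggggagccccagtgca
Emd, chrX:157190188-157190437, plus strand: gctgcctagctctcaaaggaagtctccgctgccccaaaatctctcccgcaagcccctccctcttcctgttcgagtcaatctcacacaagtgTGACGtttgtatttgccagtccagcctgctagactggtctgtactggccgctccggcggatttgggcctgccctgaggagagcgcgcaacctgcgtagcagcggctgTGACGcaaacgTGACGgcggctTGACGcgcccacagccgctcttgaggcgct
Dgcr6, chr11:96437070-96437319, minus strand: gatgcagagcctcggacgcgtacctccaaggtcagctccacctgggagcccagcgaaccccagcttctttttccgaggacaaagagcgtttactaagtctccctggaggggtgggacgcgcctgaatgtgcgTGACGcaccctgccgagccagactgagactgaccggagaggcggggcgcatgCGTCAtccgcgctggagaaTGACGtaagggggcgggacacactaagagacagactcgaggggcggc
LOC102547700, chr14:85622786-85623035, minus strand: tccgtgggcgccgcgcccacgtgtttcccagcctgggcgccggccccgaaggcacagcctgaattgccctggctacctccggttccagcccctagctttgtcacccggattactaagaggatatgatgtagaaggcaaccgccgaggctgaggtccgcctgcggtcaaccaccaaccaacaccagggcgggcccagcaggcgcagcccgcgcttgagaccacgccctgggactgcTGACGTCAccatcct

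Of 17 tested genes of the cAMP pathway, 0 were called in the unpaired fit and 2 rose in the paired fit, and both encode phosphodiesterases that hydrolyse cAMP. The list's median log2 difference was -0.16, with 5 genes above 0 in both pairs (22.3% of all genes were) and 7 below (23.1% of all genes). Pde4d had 23.3 and 12.2 at 0 h, with 1 array at the floor, and 158 and 86.1 after FSH, a rise of 6.80-fold in pair 1 and 6.41-fold in pair 2 (adjusted p = 0.0626 unpaired, 0.00366 paired). Pde4b had 114 and 88.7 against 341 and 237, or 2.98-fold and 2.68-fold (0.0935 unpaired, 0.0131 paired). The receptor gene Fshr had 195 and 88.2 at 0 h and 125 and 68.8 after FSH, with overlapping groups (log2 difference -0.50 ± 0.50, adjusted p = 0.999).

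A further list was named for brakes on MAP kinase or EGF receptor signalling, though membership does not show that a gene acts as one. Of its 9 tested genes, 1 rose in the unpaired fit, 2 rose in the paired fit and 1 fell in the paired fit (0.329% of all genes fell this way). Ptp4a1, a prenylated protein tyrosine phosphatase, had the highest FSH intensities of any gene called in the unpaired fit. It went from 187 and 289.6 to 4204 and 2826, 22.5-fold in pair 1 and 9.76-fold in pair 2 (log2 difference 3.89 ± 0.42, adjusted p = 0.00292). Dusp1, the phosphatase that inactivates MAP kinases, rose on 3 probe sets in the paired fit, 1 of them from 36.0 and 14.8 to 174 and 101 (adjusted p = 0.0908 unpaired, 0.00528 paired). Mapkapk2, a kinase activated by the p38 MAP kinase, is outside this list and rose in the paired fit from 109 and 107 to 726 and 369 (adjusted p = 0.172 unpaired, 0.00620 paired). The member that fell, Ptpn1, is described with the other falls.

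The largest single rise lay in cholesterol delivery. Star, which carries cholesterol to the inner mitochondrial membrane, and Fdx1, the ferredoxin that passes electrons to mitochondrial steroid hydroxylases, rose in the unpaired fit, and Scarb1, the receptor that takes up cholesterol from high-density lipoprotein, rose in the paired fit, out of 9 tested genes. No other gene of the list was called, and the list's median log2 difference was 0.019.

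Star had the largest log2 difference of the 38 calls. On probe set AB001349_at the untreated arrays had 2.70 and 22.3, the first under the floor, and the FSH arrays 732 and 773 (5.44 ± 0.37, adjusted p = 0.000338). On probe set AB006007_s_at the values were 34.1 and 63.3 against 514 and 773, 15.1-fold and 12.2-fold in the pairs (3.76 ± 0.49, adjusted p = 0.00812). Fdx1 had 245 and 247 at 0 h and 2229 and 2704 after FSH (9.99-fold, adjusted p = 0.00255). Both groups were tight. A dimmer Fdx1 probe set read 47.0 and 75.9 against 92.7 and 298 and was called in the paired fit alone (adjusted p = 0.0464). Scarb1 went from 171 and 87.6 to 533 and 297, 3.11-fold and 3.39-fold (adjusted p = 0.327 unpaired, 0.0109 paired), while 2 other Scarb1 probe sets were not called in either fit. The enzyme that cleaves the cholesterol side chain, Cyp11a1, lay between 8.81 and 17.9 on the 4 arrays and was too dim to test. The Leydig cell enzyme Cyp17a1 lay between 2.60 and 17.6.

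Mvk, the mevalonate kinase, was the only called gene of 14 tested in cholesterol synthesis. It rose from 18.1 and 22.7 to 137 and 122, a log2 difference of 2.67 ± 0.36 (adjusted p = 0.0105). Its second probe set, at 100.2 and 42.9 against 218 and 179, was called in neither fit (paired adjusted p = 0.0549). No other gene of the list was at least 2-fold changed one way in both pairs. The list's share of genes called higher was 7.14%, against 0.988% of all genes unpaired and 2.85% paired.

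In lipid storage and activation 1 of 21 tested genes rose in the unpaired fit and 2 in the paired fit. Dgat1, which completes triglyceride synthesis, had 328 and 167 at 0 h and 1074 and 884 after FSH (log2 difference 2.05 ± 0.38, adjusted p = 0.0498, paired 0.00904). Acsl1, which activates long-chain fatty acids, went from 18.8 and 27.1 to 189 and 76.1 (2.41 ± 0.47, 0.0605 unpaired, 0.0218 paired). A second Acsl1 probe set was under the floor on both untreated arrays and had 139 and 60.0 after FSH, and the remaining tested probe set was not called.

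Alas1 and Cyp1b1 rose outside the lists. Alas1, the first enzyme of heme synthesis, went from 115 and 88.5 to 366 and 434 (1.98 ± 0.35, adjusted p = 0.0423). Its second probe set, at 275 and 148 against 729 and 719.6, was called in the paired fit. Cyp1b1, a monooxygenase of steroids and xenobiotics, rose in the paired fit on 2 of 4 tested probe sets. It had 25.4 and 157 at 0 h and 513 and 448 after FSH on 1 of them, so that the pairs differed by 20.2-fold and 2.86-fold (adjusted p = 0.107 unpaired, 0.0318 paired). The groups did not overlap, but the untreated arrays differed from each other more than the FSH arrays did.

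Amino acid and polyamine metabolism held 5 genes that rose in the paired fit out of 14 tested, 2 of them also in the unpaired fit. Amd1, the decarboxylase that supplies the aminopropyl groups of polyamines, had 96.4 and 93.0 at 0 h and 327 and 334 after FSH  (log2 difference 1.80 ± 0.31, adjusted p = 0.0352). Slc7a1, the importer of arginine and other cationic amino acids, went from 18.8 and 24.8 to 111 and 95.5 (2.25 ± 0.38, adjusted p = 0.0352). A second Slc7a1 probe set, with 68.1 and 56.3 against 170.0 and 166, was called in the paired fit.

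Ass1, the argininosuccinate synthase that remakes arginine from citrulline, was under the floor on both untreated arrays and had 201 and 73.3 after FSH, at least 9.03-fold higher (adjusted p = 0.0691 unpaired, 0.0131 paired). Asns, the asparagine synthetase, went from 157 and 64.3 to 672 and 324, and Got1, the cytosolic aspartate aminotransferase, from 156 and 76.8 to 654 and 289.9. For these 2 genes replicate 1 was brighter than replicate 2 in both groups and the pair changes were close, 4.29-fold and 5.04-fold for Asns and 4.19-fold and 3.77-fold for Got1. They were called in the paired fit (adjusted p = 0.00140 and 0.00430) and not in the unpaired fit (0.303 and 0.422). Gls2, a glutaminase outside the list, was under the floor at 0 h and had 115 and 63.7 after FSH (paired adjusted p = 0.0178). Glul, the glutamine synthetase, pointed the other way, from 379 and 368 to 131 and 178, with a log2 difference of -1.29 ± 0.41 that was not called (adjusted p = 0.307, paired 0.0906). The other 3 Glul probe sets had smaller differences of -1.003, -0.83 and -0.50 and no call, and on the last of them the groups overlapped. Gchfr, the regulator of GTP cyclohydrolase, and Slc7a5, the importer of large neutral amino acids, were at least 2-fold higher in both pairs without a call.

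In glucose uptake, glycolysis and lactate formation 1 of 20 tested genes was called, in the paired fit (5%, against 2.85% of all genes). It was Pfkfb4, an enzyme that sets the level of fructose 2,6-bisphosphate, from 121 and 104 to 345 and 209 (adjusted p = 0.228 unpaired, 0.0424 paired). Slc2a1, the glucose transporter GLUT1, had 587 and 348 at 0 h and 236 and 203 after FSH on its brighter probe set, a log2 difference of -1.04 ± 0.40 that was not called (adjusted p = 0.474, paired 0.243). Ldhb, a lactate dehydrogenase subunit, had log2 differences of 0.19 and -0.23 on its probe sets, with overlapping groups. Ndufa5, of respiratory complex I, was the 1 gene called of 30 in oxidative phosphorylation (3.33%, near the share over all genes), from 622 and 448 to 1897 and 1061 (paired adjusted p = 0.0200).

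Secreted regulators of the tubule followed. Inha encodes the alpha subunit of inhibin, the Sertoli hormone that restrains FSH release from the pituitary. Probe set M36453_at had 286 and 141 at 0 h and 1639 and 1136 after FSH, 5.72-fold in pair 1 and 8.08-fold in pair 2, and M32754cds_s_at went from 363 and 167 to 1220.0 and 763. Both rose in the paired fit (adjusted p = 0.000480 and 0.00366) and missed the unpaired threshold (0.0622 and 0.258). Inha was the 1 gene called of 14 in inhibin, activin and TGF-beta signalling and of 20 among Sertoli secreted and identity genes. These paired shares were 7.14% and 5%, against 2.85% of all genes. Inhba, the activin subunit, had 29.1 and 65.7 against 76.7 and 60.9, with overlapping groups. Amh, anti-Müllerian hormone, differed by -0.24 ± 0.42, Clu by 0.034 ± 0.37 and Shbg by 0.20 ± 0.31 log2 units, and none of them was called (adjusted p = 0.999 for each).

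Plat, the tissue-type plasminogen activator that Sertoli cells secrete, was the 1 gene called of 20 proteases and inhibitors. It had 30.1 and 26.7 at 0 h and 523 and 379 after FSH, 17.4-fold and 14.2-fold in the pairs (log2 difference 3.97 ± 0.34, adjusted p = 0.000847). Lox, the oxidase that cross-links collagen and elastin, was the 1 called of 25 matrix genes, at 1.19 and 13.8 against 65.2 and 77.0 with 1 untreated array at the floor (2.38 ± 0.38, adjusted p = 0.0313). The other 2 Lox probe sets, at 14.5 and 60.2 against 93.6 and 69.0 and at 7.68 and 32.6 against 51.7 and 50.5, were called in neither fit. The shares of the protease and matrix lists, 5% and 4%, compare with 0.988% of all genes called unpaired and 2.85% paired. Crispld2, a secreted protein with a cysteine-rich domain, went from 7.90 and 39.4 to 184 and 264, with 1 untreated array at the floor (3.26 ± 0.53, adjusted p = 0.0330).

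Among growth factors and vasoactive peptides 2 of 21 rose in both fits (9.52%) and 1 fell in the paired fit (4.76%). Over all genes 0.988% rose unpaired, 2.85% rose paired and 0.329% fell paired. Nppc, the C-type natriuretic peptide, rose from 22.4 and 49.95 to 193 and 175 (2.46 ± 0.46, adjusted p = 0.0498), and its second probe set was called in neither fit. Ephb3, a receptor tyrosine kinase for ephrins, was under the floor on both untreated arrays and had 293 and 125 after FSH, at least 14.3-fold higher (adjusted p = 0.0498). Edn1, endothelin-1, fell and is described below. Adm, adrenomedullin, had 104 and 106 at 0 h and 16.9 and 9.51 after FSH, the second under the floor, and was called in neither fit (adjusted p = 0.136, paired 0.0647).

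Of 13 tested junction genes, Ocln rose in the unpaired fit and Cd24 joined it in the paired fit, and the list's median log2 difference was 0.36. Ocln encodes occludin, a protein of the tight junctions that make the blood-testis barrier. Probe set rc_AI638971_g_at had 41.4 and 52.3 at 0 h and 212 and 171 after FSH (2.03 ± 0.34, adjusted p = 0.0352). AB016425_at went from 101 and 131 to 560.0 and 333 and was called in the paired fit (adjusted p = 0.0986 unpaired, 0.0248 paired), and rc_AI638971_at, at 77.4 and 82.1 against 481 and 143, was not. All 3 were higher on both FSH arrays, and all 3 had the larger difference in pair 1.

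Cd24, a glycoprotein anchored in the outer membrane, rose on all 3 probe sets in the paired fit, from 51.4 and 14.9 to 585 and 249.7 on the brightest (3.79 ± 0.76, adjusted p = 0.0622 unpaired, 0.00140 paired). The other 2 read 22.4 and 16.1 against 211 and 86.0, and 32.1 and 6.83 against 271 and 71.5. Replicate 1 was the brighter array in both groups on every Cd24 probe set.

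In the actin list 2 of 24 genes rose in the unpaired fit and 3 in the paired fit, while the list's median log2 difference was -0.029. Ezr, which encodes ezrin, a linker of the membrane to actin, had 128 and 121 at 0 h and 904 and 720.4 after FSH (2.70 ± 0.34, adjusted p = 0.00812). Emd, the gene for emerin of the inner nuclear membrane, was under the floor on both untreated arrays of 1 probe set and had 318 and 395 after FSH, at least 26.4-fold higher (adjusted p = 0.000338). The second Emd probe set measured 148 and 143 against 806 and 963, so that the fold there, 6.06, does not rest on the floor (adjusted p = 0.00812). Tpm4, a tropomyosin, rose in the paired fit from 185 and 201 to 657 and 492 (adjusted p = 0.0305), and its other probe set, with overlapping groups, was not called. Pmp22, a membrane protein of epithelia and myelin that lies outside these lists, went from 165 and 145 to 659 and 492 (1.88 ± 0.32, adjusted p = 0.0352). Fat1, a large cadherin, and Adgrl2, an adhesion G protein-coupled receptor, rose in the paired fit, Fat1 from 39.6 and 16.9 to 210.0 and 138 (adjusted p = 0.0263) and Adgrl2 from 78.1 and 64.1 to 215 and 196 on its brighter called probe set (adjusted p = 0.0342), with 1 further Adgrl2 probe set not called.

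**Figure D2:**
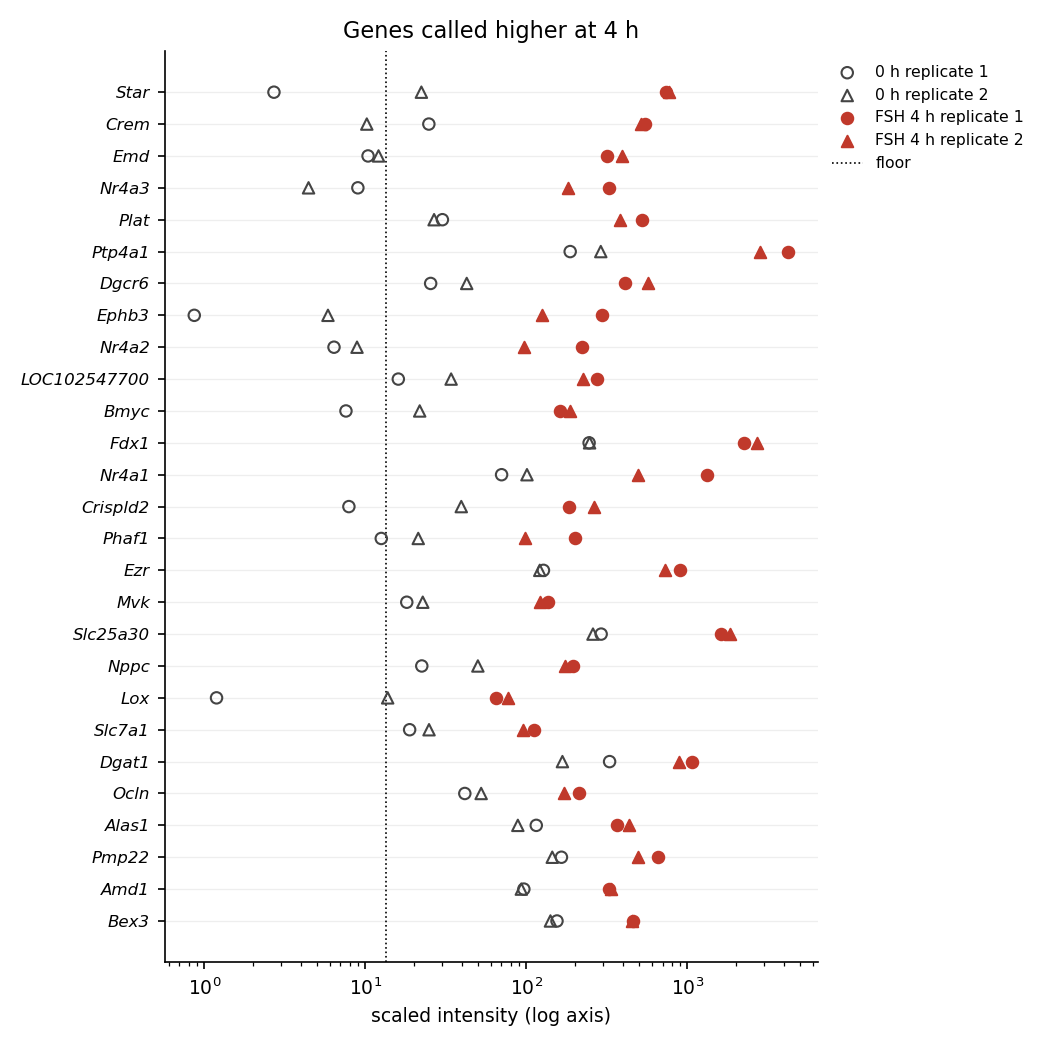
Scaled intensity (log axis) of the 27 genes called higher at 4 h in the unpaired fit, on the called probe set with the largest difference, for the untreated arrays (open symbols) and the FSH arrays (filled symbols). The dotted line is the floor of 13.4, circles are replicate 1 and triangles replicate 2. The filled symbols lie to the right of the open ones in every row, and for Star, Crem, Emd, the Nr4a2 and Nr4a3 genes, Ephb3, Bmyc, Crispld2, Phaf1 and Lox at least 1 untreated array lies under the floor.

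Several called genes had less known roles. Dgcr6, named for the DiGeorge critical region, had 25.4 and 42.6 at 0 h and 411 and 571 after FSH, 16.2-fold and 13.4-fold in the pairs (3.88 ± 0.38, adjusted p = 0.00215). Slc25a30, a mitochondrial carrier, started brighter, at 291 and 259, and reached 1621 and 1826 (2.65 ± 0.31, adjusted p = 0.00528). LOC102547700 rose on both probe sets, from 16.01 and 34.1 to 274 and 224 on the brighter (3.41 ± 0.45, adjusted p = 0.00815).

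Phaf1 had 12.6 and 21.3 against 200.2 and 97.4, with 1 untreated array at the floor (3.05 ± 0.55, adjusted p = 0.0470). Bex3, a small protein that binds the p75 neurotrophin receptor, had the smallest difference of the 38, from 155 and 141 to 458 and 452 (1.62 ± 0.30, adjusted p = 0.0498). A brighter Bex3 probe set went from 430.5 and 465 to 1729 and 819 and was called in the paired fit alone (adjusted p = 0.303 unpaired, 0.0416 paired). The FSH arrays of Bex3 were thus nearly equal on the first probe set and 1 was far above the other on the second, and no array of either gene overlapped the other group.

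The largest rises found in the paired fit alone included several regulators. Nfkb1, the p50 and p105 subunit of NF-kB, went from 149 and 43.8 to 941 and 326, with pair changes of 6.32-fold and 7.44-fold (adjusted p = 0.212 unpaired, 0.00126 paired). Maf, a bZIP transcription factor, had 17.1 and 52.3 against 258 and 141 (0.0861 unpaired, 0.0342 paired), and its other probe set, at 13.6 and 31.8 against 87.0 and 54.2, was not called (paired adjusted p = 0.211). Kcnk5, an acid-sensitive potassium channel, had 29.3 and 10.03 against 95.1 and 140.1, with 1 untreated array at the floor (paired adjusted p = 0.0182).

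Enzymes and kinases were also among them. Ckb, the brain-type creatine kinase, rose on both probe sets, from 138 and 198 to 610.4 and 446 on the brighter (paired adjusted p = 0.0437). Hagh, the glyoxalase II that clears methylglyoxal, had 69.4 and 143 against 579.8 and 454 (paired adjusted p = 0.0106). Pim1, a serine/threonine kinase, had 18.5 and 7.10 against 65.4 and 83.6 (paired adjusted p = 0.0305), and Plpp3, a lipid phosphate phosphatase, was under the floor at 0 h and had 70.1 and 84.9 after FSH (paired adjusted p = 0.0261). A second Plpp3 probe set had 35.7 and 48.2 against 68.5 and 98.7 and was not called (paired adjusted p = 0.326). RT1-DMa, which loads class II antigens, had 4.22 and 18.7 against 74.0 and 83.4 (paired adjusted p = 0.0305). Its brighter probe set, at 140.5 and 140.5 against 277 and 261, was called in neither fit (paired adjusted p = 0.102). Of the 8 macrophage marker genes on the array, 3 to 5 were at the floor on each of the 4 arrays. Cd74 was at 17.7 or less on all 4, whereas Cd14 had 72.5 and 88.3 at 0 h and 88.3 and 63.5 after FSH on its brighter probe set. The part of macrophage RNA in the RT1-DMa values was not tested.

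In 3 more lists 1 gene each rose in the paired fit, shares of 2.38% to 5.88% that lie near the 2.85% over all genes. Arf6, a small GTPase of endocytosis, was the 1 called of 42 in the secretory pathway, from 318 and 210.5 to 829 and 681 (adjusted p = 0.0127). In that list 15 genes were above 0 in both pairs and 2 below, against 22.3% above and 23.1% below over all genes. Atp2a2, the calcium pump of the endoplasmic reticulum, was the 1 called of 23 in solute transport (81.1 and 43.7 against 168 and 177, adjusted p = 0.0322), and 2 more of its probe sets were not called, 1 of them with a difference of -0.53. Atp2b1, a calcium pump of the cell membrane, was under the floor at 0 h and had 107 and 40.7 after FSH, without a call (adjusted p = 0.263, paired 0.104). Nr2f6, an orphan nuclear receptor, was the 1 called of 17 in its list (196 and 131 against 546 and 358, adjusted p = 0.0316).

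No fall reached the threshold in the unpaired fit, although without the filter on dim probe sets the same fit called 11 of 8740 lower. In the paired fit 14 probe sets fell, covering 9 genes and 3 probe sets without a single symbol, and all 14 were at least 2-fold lower in both pairs, with median log2 differences of -1.89 in pair 1 and -1.49 in pair 2. For all 14, both FSH arrays lay below both untreated arrays, an order that 13.0% of all tested probe sets had. The 14 were called on these same arrays, so this order adds no support. The falls included outputs of the circadian clock, signalling genes and enzymes.

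Dbp and Nr1d1 are driven by the clock proteins CLOCK and BMAL1, and they were the 2 genes that fell of 7 tested in the clock list, where 4 of 7 lay below 0 in both pairs (23.1% of all genes did). Dbp, a PAR bZIP factor, had 267 and 51.7 at 0 h and 8.09 and 12.8 after FSH, both under the floor, at least 8.75-fold lower (adjusted p = 0.0986 unpaired, 0.0287 paired). A dimmer Dbp probe set had 84.7 and 29.0 against 7.89 and 4.17 and was not called. Nr1d1, the repressor REV-ERB alpha, had 171 and 80.1 against 36.3 and 28.3 (log2 difference -1.87 ± 0.44, adjusted p = 0.115 unpaired, 0.0248 paired). Its brighter probe set had 222 and 148 against 107 and 73.9 and missed the paired threshold (adjusted p = 0.0906). Among the 4 arrays, the untreated replicate 1 was the brightest on every probe set of both genes. Bmal1, the activator itself, singled out after its values were seen, had pair differences of 2.23 and 0.57 and was not called. The sampling hour and the time since the last change of medium are not given in the sources used here.

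Fzd1, a Wnt receptor, fell in the paired fit. It had 162 and 145 at 0 h and 51.9 and 33.3 after FSH (-1.88 ± 0.38, adjusted p = 0.0626 unpaired, 0.0106 paired). Edn1 fell from 195 and 84.2 to 47.3 and 23.3, with pair changes of 4.12-fold and 3.61-fold (adjusted p = 0.221 unpaired, 0.0186 paired). Endothelin-1 constricts vessels and peritubular cells, whereas the peptide of Nppc, which rose, relaxes smooth muscle.

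Ptpn1, the phosphatase PTP1B that acts on the insulin receptor, fell on 2 of 5 tested probe sets, from 1642 and 817 to 440.0 and 369 on the brightest (adjusted p = 0.228 unpaired, 0.0301 paired) and from 112 and 101 to 30.4 and 41.1 on a dimmer one (0.0626 unpaired, 0.0259 paired). The other 3 had differences of -0.81, -0.44 and -0.29. Ppp2r2a, a regulatory subunit of protein phosphatase 2A, fell on 2 of 3 probe sets, from 611 and 479 to 254 and 191 on the brighter (paired adjusted p = 0.0342). Its pair changes were alike, 2.41-fold and 2.51-fold.

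Zfp36, the protein tristetraprolin that speeds the decay of cytokine mRNAs, had 170.4 and 72.6 at 0 h and 37.3 and 30.8 after FSH (-1.72 ± 0.50, adjusted p = 0.248 unpaired, 0.0424 paired), while its second probe set had a difference of -0.54 and was not called. Of 22 tested genes in the inflammatory list, Zfp36 fell and Nfkb1 rose in the paired fit. In that list 13 lay below 0 in both pairs (23.1% of all genes did) and 3 above (22.3% of all genes), and the median was -0.43. The macrophage markers summed to 154 and 199 at 0 h and to 219 and 162 after FSH, and their part in these values was not tested. Irgm2, an interferon-induced GTPase, had 236 and 64.2 against 82.8 and 30.9, with overlapping groups and no call.

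Hmox1, the heme oxygenase that degrades heme, fell from 188 and 232 to 65.4 and 112 (-1.29 ± 0.45, adjusted p = 0.380 unpaired, 0.0320 paired), opposite in direction to Alas1. The second Hmox1 probe set, at 419 and 354 against 162 and 204, missed the paired threshold (adjusted p = 0.0770). Hmox1 was the 1 gene called of 32 in the antioxidant list (3.1%, against 0.329% of all genes lower in the paired fit). Txnrd1, the thioredoxin reductase, was at least 2-fold higher in both pairs without a call. Rpl17, a ribosomal protein, had 293 and 485 against 88.0 and 175 (adjusted p = 0.795 unpaired, 0.0435 paired). It was the 1 gene called of 45 for ribosomal proteins and translation (2.22%, against 0.329% of all genes). That list's median was -0.54 in pair 1 and 0.43 in pair 2. Rpl30 was at least 2-fold lower in both pairs with overlapping groups and no call. Nr0b2, the repressor SHP, had 118 and 62.3 against 25.6 and 9.997 on 1 probe set and 134 and 161 against 99.6 and 83.1 on a brighter one. The log2 differences were -2.21 and -0.69, and neither was called in either fit (paired adjusted p = 0.0942 and 0.399).

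**Figure D3:**
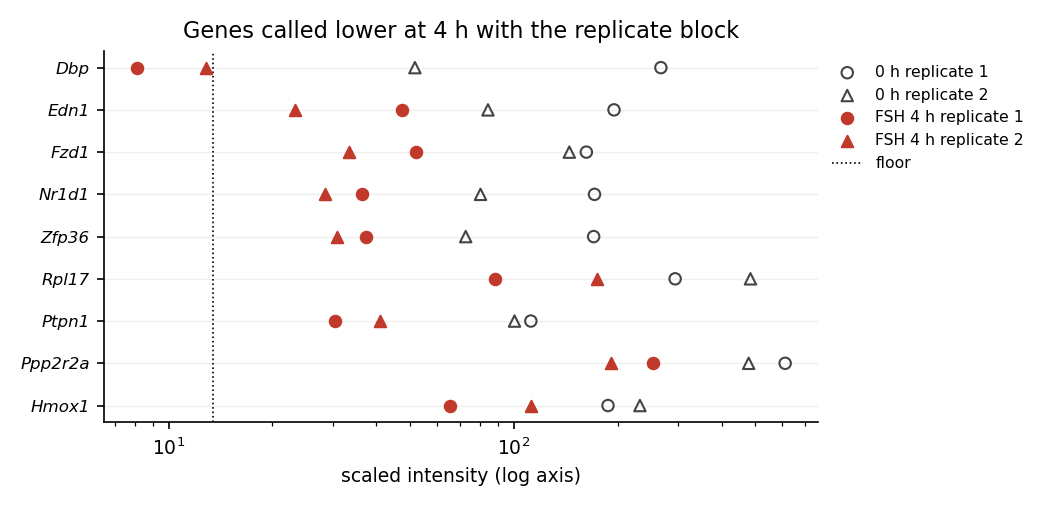
Scaled intensity (log axis) of the 9 genes called lower at 4 h in the paired fit, on the called probe set with the largest difference, for the untreated arrays (open symbols) and the FSH arrays (filled symbols). The dotted line is the floor of 13.4, circles are replicate 1 and triangles replicate 2. In every row the filled symbols lie to the left of the open ones, and only Dbp reached the floor after FSH.

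Other groups had no call in either fit. They were the 26 tested chaperones, the 24 cell cycle genes, the 27 genes of the proteasome and ubiquitin, the 13 intermediate filaments and tubulins and the 4 Id and Hes repressors. Their median log2 differences lay between -0.10 and 0.15. Id2, an inhibitor of helix-loop-helix factors, moved in opposite directions in the pairs, by 1.07 and -1.28, and Id1 and Id3 were not called. Lmnb1, lamin B1, was the 1 intermediate filament gene at least 2-fold higher in both pairs (20.1 and 33.4 against 68.6 and 89.7, adjusted p = 0.228). Wt1, a transcription factor of Sertoli identity, had differences of 0.68, 0.55 and -0.31 on its 3 probe sets and was not called. The lists together held 19 of the 27 genes called in the unpaired fit, 39 of the 78 that rose in the paired fit and 7 of the 9 that fell, and 563 of the 2733 genes tested.

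**Figure D4:**
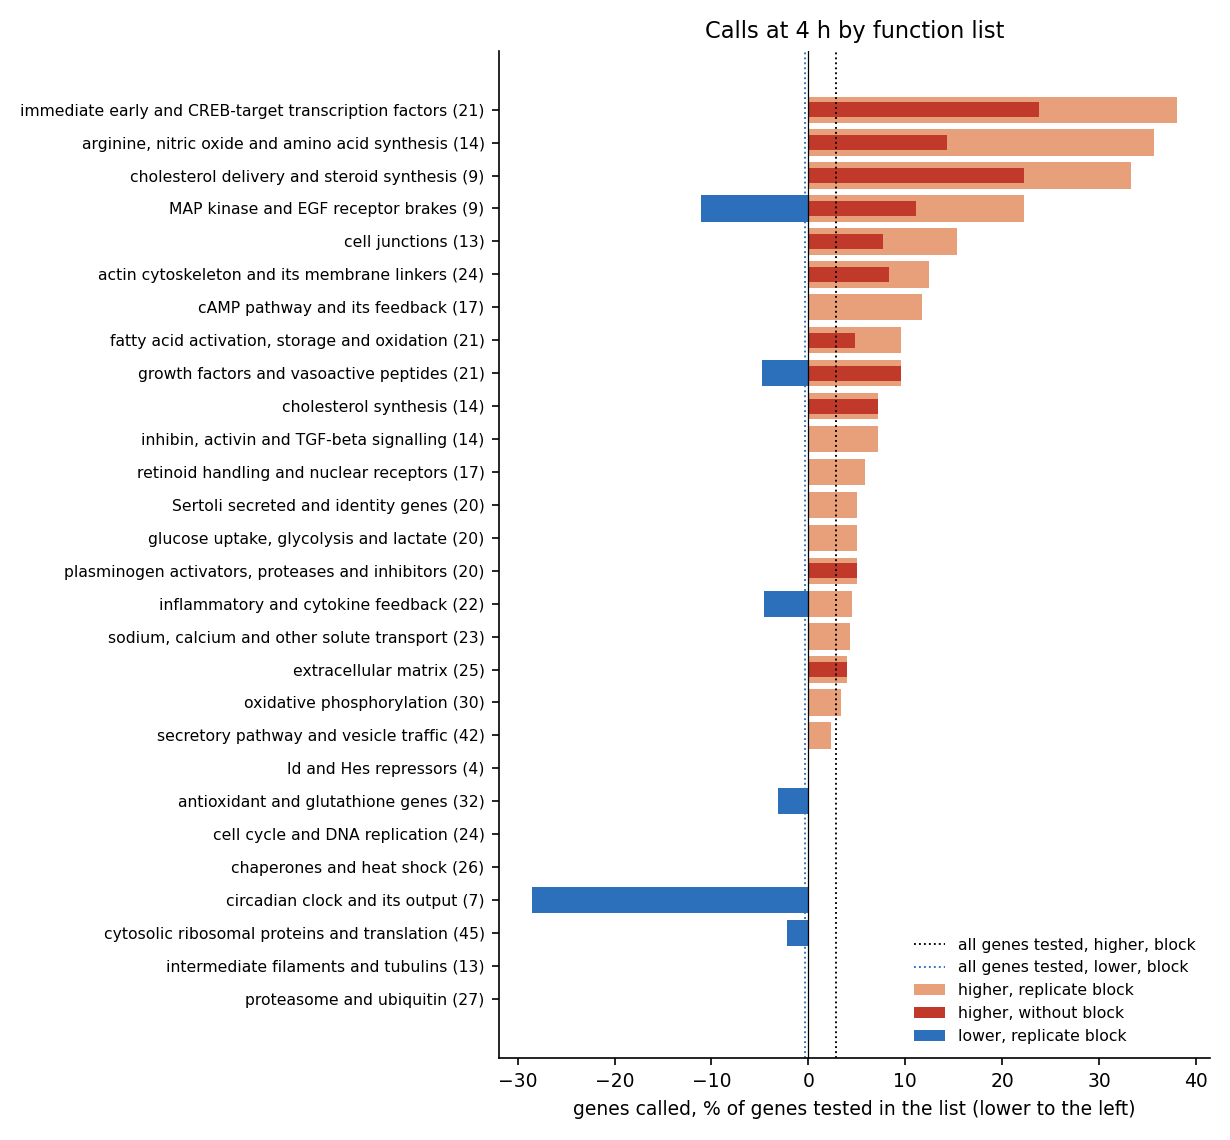
Share of the tested genes of each function list that were called at 4 h, with the number tested in brackets. Bars to the right are genes called higher (dark red in the unpaired fit, orange in the paired fit), blue bars to the left are genes called lower in the paired fit, and dotted lines are the shares over all genes tested, 2.85% higher and 0.329% lower. The 5 leading lists by rises are those named for transcription factors, amino acid synthesis, cholesterol delivery, signalling brakes and junctions. The lists were chosen with earlier results of these data known, so their order is a description. The clock list has the longest bar on the left, with 2 of 7 genes.

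The later arrays placed the 4 h levels in time. At 8 h against 4 h limma called 0 probe sets unpaired (0.0%, 152 at an unadjusted p under 0.05), and the paired fit called 4, all lower at 8 h (0.0901%). Ocln accounted for 2 of the 4, and the others carried no single symbol. On rc_AI638971_g_at Ocln went from 212 and 171 at 4 h to 35.6 and 24.7 at 8 h, a log2 difference of -2.68 (adjusted p = 0.0965 unpaired, 0.0298 paired). At 2 h it had 103 in the first replicate and 102 in the second, so its brightest time of those sampled was 4 h.

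The 38 calls were chosen on the 4 h arrays, which favours values at other times that are lower, so their counts are given as a description. Their 8 h values were below those of 4 h for 29 and above for 9, with a median log2 difference of -0.76, while 50.6% of all tested probe sets were below. Nr4a1 read 1328 and 496 at 4 h and 129 and 114 at 8 h, and Nr4a2, on probe set L08595_at, 119 and 72.1 and then 13.2 and 15.99. These differences, -2.74 and -2.66, were not called in the unpaired fit (adjusted p = 0.645 and 0.407) or the paired fit (0.117 and 0.104). Dgat1 continued upward in value, from 1074 and 884 to 2610 and 2154, Lox from 65.2 and 77.0 to 187 and 133, and Ass1 from 201 and 73.3 to 763 and 206, none of them called between 4 and 8 h.

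Against 2 h limma called 0 probe sets at 4 h in either fit (0.0%, 160 at an unadjusted p under 0.05, smallest adjusted p 0.463 unpaired and 0.0776 paired). Of the 38 probe sets, again chosen on the 4 h values, 31 had higher values at 4 h than at 2 h, with a median log2 difference of 0.95, while 49.9% of all tested probe sets did. Nr4a1 and Nr4a2 were among those with higher values at 2 h, at 1897 and 1171 and at 254 and 171. Fdx1 had 829 and 985 at 2 h and Plat 211 and 155, both under their 4 h values in either replicate.

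**Figure D5:**
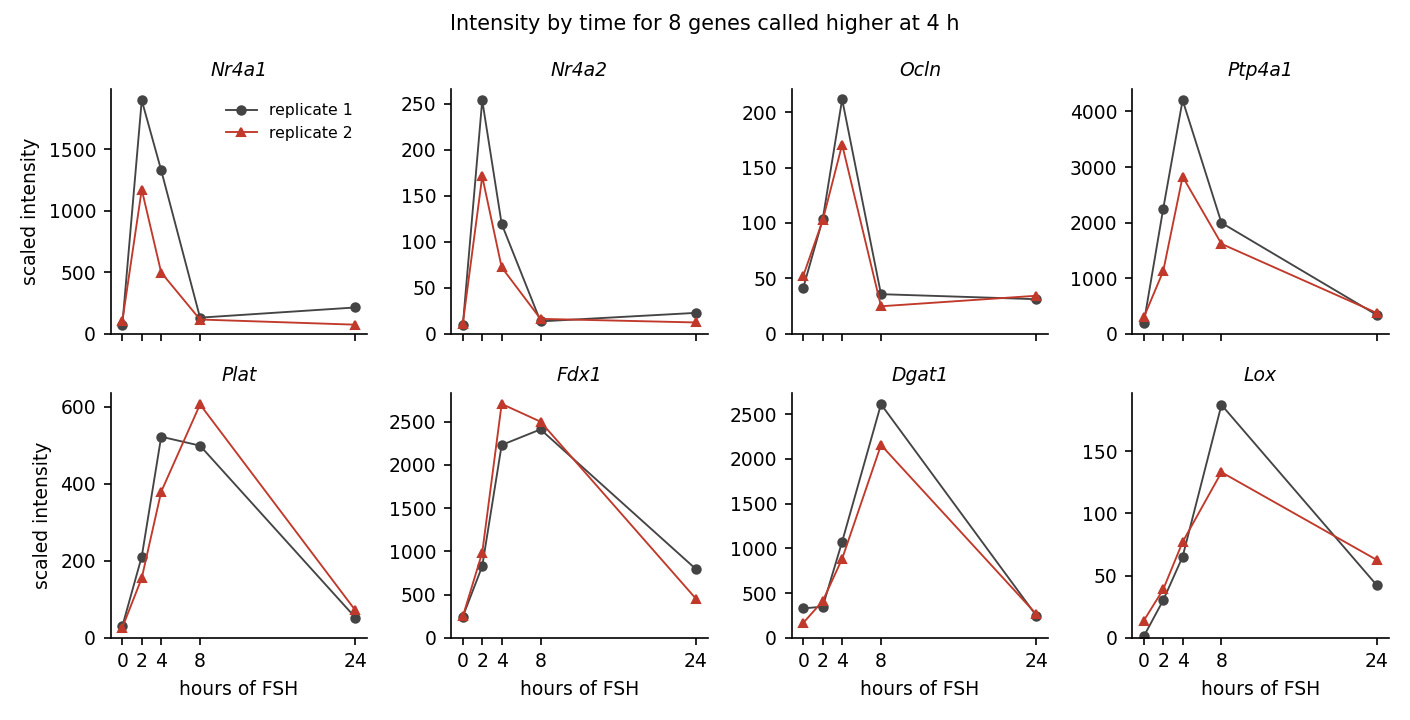
Scaled intensity by hours of FSH for 8 genes called higher at 4 h, with replicate 1 as circles and replicate 2 as triangles on a linear axis, joined within each replicate number. Nr4a1 and Nr4a2 were brightest at 2 h, Ocln and Ptp4a1 at 4 h, and Dgat1 and Lox at 8 h in both replicates.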

How the data were processed

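RNA of cultured Sertoli cells was measured on 10 arrays, 5 groups of 2. As deposited, the values were intensities on a linear scale, with 1 value for each probe set on each array. The sources used here do not give how the authors made them. Their mean, after trimming 2% at each end, was 125.2 to 125.3 on all 10 arrays, so they appear to have been scaled to a common mean already. The 2 untreated arrays still differed, with deposited medians of 26.7 and 44.5 and 75th percentiles of 99.3 and 121. Each array was divided to give a common 75th percentile of 107 over the 8740 non-control probe sets. Values under a floor of 13.4 (that percentile divided by 8) were set to it, and log2 was taken. Of the 8740 probe sets, 4439 whose mean over the 10 arrays reached the pooled median of 31.9 were tested. The intensities printed are scaled values without the floor, and a fold against a group wholly at the floor is given as a lower bound.

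The tests used limma 3.58.1 (R 4.3.3; lmFit with 1 mean per group over all 10 arrays, eBayes with an intensity trend, Benjamini-Hochberg over 4439 probe sets). Both fits were run on simulated arrays made with a replicate term, as a check of the code. Those runs do not bear on the calls here. The number of arrays limits the precision. Same-numbered arrays deviated together from their group means at every pair of times (r from 0.110 to 0.698 over 10 pairs, 0.205 to 0.608 over the 6 without the 2 h arrays, where the number of 1 array was inferred from its partner's label). A second fit therefore had the replicate number as a block. For 0 h and 4 h, the groups compared here, r was 0.205. Over all tested probe sets the changes in the 2 pairs correlated at 0.149. The title of 0 h replicate 1 names no time, and its description gives time 0.

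Symbols came from the platform's annotation: 7006 probe sets had 1 symbol, 308 several and 1426 none, and 6985 matched a RefSeq gene of GRCr8 with 0 symbols changed. Probe sets with several symbols are not named, and 0 columns of the value table were left unmapped. Except for Bmal1, the genes named are every gene called in the unpaired fit or lower in the paired fit, the 20 largest rises of the paired fit alone, called list members, up to 4 members per list that changed at least 2-fold one way in both pairs, and genes linked to FSH action. Sox9, Cyp11a1 and Cldn11 of the last set were not tested. For each list, the value of a gene is that of its brightest probe set, and a gene counts as called where any of its probe sets was. The comparison, the gene lists and this naming rule were chosen with earlier results of these data known. Alternatives were the values as deposited, quantile normalization, other floors and filters, the percentile with control probe sets (chosen after seeing the data), no trend, the block, the 4 arrays alone and leaving out each array.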

Additional observations from a re-analysis of the deposited data

How the results depend on the processing

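The 38 probe sets called higher at 4 h kept their direction in each of 22 settings, the main one among them. The 24 of them that the filter at the pooled 75th percentile left in the test kept it there too, while the other 14 were too dim for it. This was largely fixed in advance and is no support for the calls. The block, the trend, the filters and the arrays of other times leave a probe set's log2 difference unchanged. For all 38, both FSH arrays lay above both untreated arrays, so leaving out 1 of these could not turn a sign. The count of higher calls was 26 to 46 with the values as deposited, quantile normalization, other floors and filters, control probe sets in the percentile or no trend. It was 117 with the replicate block, 103 with the block without the 2 h arrays, 23 with only the 4 arrays and 88 with those arrays and the block, and 8 to 28 over the fits that left out 1 array. Lower calls, 0 in the main setting, numbered 1 as deposited, 1 with the floor at the percentile divided by 4, 11 without the filter, 14 with the block, 11 with the block without the 2 h arrays and 13 with the 4 arrays and the block, and 0 to 1 without 1 array. At 8 h against 4 h the 0 calls became 13 without the filter, 4 with the block and 4 with the block without the 2 h arrays, and stayed at 0 to 0 without 1 array. At 4 h against 2 h they became 14 without the filter, remained 0 with the block and stayed at 0 to 0 without 1 array, and the block without the 2 h arrays could not be fitted. Probe sets at least 2-fold changed in both pairs numbered 92 higher and 11 lower with the filter at the pooled 75th percentile, which left 2240 to count. Control probe sets in the percentile left 31 higher calls, the floor divided by 4 left 29, and that divided by 16 left 31. The cause was not tested for the other shifts.

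Signs turned for some probe sets called in neither fit when 1 array was left out. Over the 10 such fits the log2 difference ran from -0.56 to 0.080 for Amh, -0.39 to 0.45 for Clu, -1.07 to 0.075 for Fshr and -0.83 to 0.62 for Id2. It ran from -0.38 to 0.0075 and from -0.35 to 0.23 for 2 Jun probe sets, and from -0.26 to 0.63 and -0.90 to 0.45 for those of Ldhb. For single uncalled probe sets it ran from -0.90 to 0.23 (Nr4a3), -0.75 to 0.17 (Ptpn1), -0.20 to 0.92 (Tpm4) and -0.999 to 0.39 (Wt1). Over all values of named probe sets and settings, 3066 kept their direction and side of the threshold, 183 passed it newly, 251 lost it and 17 turned. The replicate block ended none of the 38 calls. Values under the floor have no order, which limits folds of dim probe sets.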
